A study of Mus musculus with 4 samples.

Results

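The subject is the extracellular adenosine pathway, represented by 7 genes (Entpd1, Nt5e, Adora2a, Adora2b, Ada, Dpp4 and Pnp) out of 31053 mouse genes counted. The genes were chosen by name, and the set was put together knowing that Ada was about 10 times lower in T and NK cells of hosts without IL-1α, so every difference of the members between host genotypes in those cells is given as a description and not as a test. All 7 symbols were found as mouse features and all 7 had UMIs (unique molecular identifiers, which count captured transcripts) in called cells, from 351 for Adora2b to 4264 for Pnp.

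Each of the 4 libraries holds single-cell RNA of a day-14 tumour grown from H605, a HER2+ mouse mammary tumour line, in the mammary pad. The hosts were FVB/NJ mice labelled as 6 to 8 weeks old. The 2 hosts of one group were WT and the 2 of the other were IL1α-/-. The transplanted cells were the same line in both groups, so the knockout was in the host and not in the tumour cells. The labels place the collection of the 2 pairs on separate days without saying which libraries form a pair, and they do not say whether more than 1 animal went into a library.

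The 2 IL1α-/- libraries were shallower, with 6705368 and 15298532 UMIs against 23464120 and 29001333 in the WT libraries, and 3130 to 3878 cells were called per library. Called libraries shared 0 to 5 cell barcodes in a pair, beside 1.5 to 2.21 expected from the number of cells. Il1a itself, read in mononuclear phagocyte-like cells, had 62 and 82 UMIs in the WT libraries and 1 and 0 in the IL1α-/- libraries. Cells were grouped by clustering and named from marker genes. The class called T/NK-like had the most cells, 2266 to 2475 in each library. All 18 T/NK markers had UMIs there, and their summed level was 6247 and 6835 CPM in WT and 9464 and 8045 in IL1α-/-. 4 further classes had at least 20 cells in every library: mononuclear phagocyte-like, fibroblast-like, plasmacytoid dendritic-like and conventional dendritic-like. Levels are CPM, that is, UMIs of the gene per 1000000 UMIs of the class in the same library.

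Cells under stress or dying release ATP, which acts as an alarm signal outside the cell. The membrane enzyme CD39 (Entpd1) cuts ATP and ADP to AMP, and CD73 (Nt5e) cuts AMP to adenosine. Adenosine acts through G-protein-coupled receptors. The receptor encoded by Adora2a raises cyclic AMP in T and NK cells and dampens their activation, and the one encoded by Adora2b has a lower affinity for adenosine. The signal ends when adenosine deaminase (Ada) turns adenosine into inosine, inside cells or outside them, and purine nucleoside phosphorylase (Pnp) turns inosine into hypoxanthine. CD26 (Dpp4) is a surface peptidase that in humans also holds adenosine deaminase at the membrane. In tumours the pathway is known as a brake on lymphocytes.

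Ada and Entpd1 were the 2 members with the largest differences between hosts in T/NK-like cells, in opposite directions, so the sequences before their annotated starts are shown first. Ada lies on chromosome 2 (GRCm38, GENCODE vM21, 163726584 to 163750239, minus strand), 34.4 Mb from the knocked-out Il1a (129299610 to 129309972), and Entpd1 lies on chromosome 19 (40612366 to 40741602, plus strand). RefSeq promoter windows on GRCm38.p6 were matched for 6 of the 7 members, and the 250 bases before the start are printed from 5′ to 3′ on the gene's strand, with capitals marking the GC box GGGCGG or its reverse complement CCGCCC. The reference is not the FVB/NJ genome. Ada has 1 window (2:163750240-163750489) and Entpd1 has 2, one for each annotated start (19:40612116-40612365 and 19:40659520-40659769).
Ada: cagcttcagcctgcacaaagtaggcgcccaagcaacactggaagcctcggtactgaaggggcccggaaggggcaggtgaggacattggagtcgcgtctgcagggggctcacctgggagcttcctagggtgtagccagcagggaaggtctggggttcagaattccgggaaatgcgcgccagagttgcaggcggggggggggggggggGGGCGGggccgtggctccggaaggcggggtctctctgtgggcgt
Entpd1, first start: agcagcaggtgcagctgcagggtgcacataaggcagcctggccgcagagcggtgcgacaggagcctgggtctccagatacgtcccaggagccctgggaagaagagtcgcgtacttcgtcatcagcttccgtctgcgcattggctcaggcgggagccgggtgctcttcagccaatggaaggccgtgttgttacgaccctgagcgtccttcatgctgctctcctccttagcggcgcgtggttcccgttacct
Entpd1, second start: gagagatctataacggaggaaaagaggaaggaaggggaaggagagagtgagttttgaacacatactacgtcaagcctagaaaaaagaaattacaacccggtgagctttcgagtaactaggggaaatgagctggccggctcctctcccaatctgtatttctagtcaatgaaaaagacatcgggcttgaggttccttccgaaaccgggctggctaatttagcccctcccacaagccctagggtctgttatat
The Ada window holds 1 GC box, in a run of G, with 67.2% G or C. Both Entpd1 windows hold none, with 62.4% and 47.2% G or C. Of the 32851 mouse windows of this length, 32.7% hold a GC box on either strand, and the median content of G or C is 52.4%. Of the other members, Adora2b has 6 GC boxes, Nt5e 4, Pnp 1 and Dpp4 none. Dpp4 alone of the matched members has the letters TATAAA or TTTATA, which 12.4% of windows hold.

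Ada, which removes adenosine, was measured at 24.8 and 26.0 CPM in T/NK-like cells of the WT libraries and at 2.17 and 2.93 CPM in those of the IL1α-/- libraries. These levels rest on 195 and 306 UMIs against 8 and 25. Both WT libraries lay far above both IL1α-/- libraries, and the means were 25.4 ± 0.817 (SD, n = 2) and 2.55 ± 0.537 (SD, n = 2), a ratio of 9.96. The edgeR log2 fold change was -3.21 with a standard error of 0.24, and it ranged from -3.53 to -3.04 over 12 alternatives of filter, scaling, cell calling, class definition and left-out library. As this contrast chose the gene, no p-value is given. For the same reason nothing is read from the count of members called, meaning past a Benjamini-Hochberg adjusted p of 0.05 by edgeR's quasi-likelihood fit. It was 2 of the 6 that passed the filter on low counts (Entpd1 higher, Ada lower). Of all 11083 genes 4.68% were called, 2.85% higher and 1.83% lower.

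**Figure D1:**
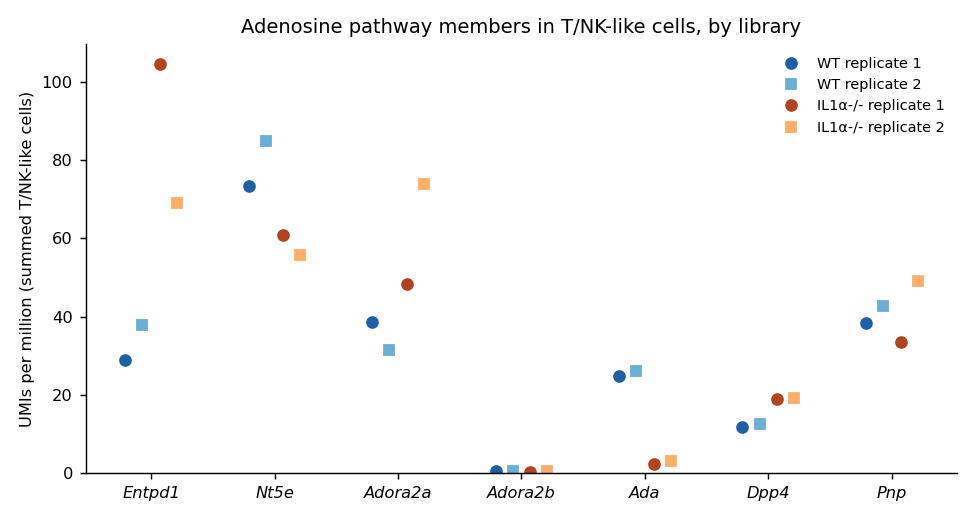
CPM in summed T/NK-like cells (vertical axis) for each member (horizontal axis), with 1 point per library. Ada lies at 24.8 and 26.0 in WT and at 2.17 and 2.93 in IL1α-/-, while Entpd1 is higher in both IL1α-/- libraries (104.5 and 69.2) than in both WT libraries (28.8 and 38.0).

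Ada was found in a small share of cells. An Ada UMI was seen in 7.46% and 11.1% of T/NK-like cells of the WT libraries and in 0.323% and 0.973% of those of the IL1α-/- libraries, at median depths of 2825, 4056, 1239 and 2688 UMIs. After each cell was thinned to 1000 UMIs, which left out 78, 73, 780 and 132 shallower cells, the shares were 2.10% and 2.40% against 0.177% and 0.224%. Their exact binomial 95% intervals, which cover counting error only, were 1.54 to 2.79% and 1.82 to 3.12% against 0.0365 to 0.516% and 0.0727 to 0.522%, so the groups stayed apart at equal depth. Tumour epithelial-like cells, the deepest class, had an Ada UMI in 6.17% and 4.51% of cells of the WT libraries at median depths of 15060 and 23566 UMIs, and in 1 of 243 (0.412%) and 0 of 133 cells after thinning to the same 1000 UMIs. Their exact 95% intervals reach up to 2.27% and 2.74% and overlap those of the WT T/NK-like shares. Whether the thinned shares of the 2 classes differed was not tested.

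Free RNA carried Ada too. In barcodes of at most 100 UMIs Ada stood at 9.84 and 10.7 CPM in the WT libraries and at 2.69 and 3.27 CPM in the IL1α-/- libraries. In WT the T/NK-like level was above that of the free RNA of its own library, and in IL1α-/- the 2 were about equal. The part of free RNA in the cells was not estimated. The remaining Ada UMIs of the IL1α-/- T/NK-like cells can therefore not be told apart from free RNA. The summed level of tumour epithelial markers in T/NK-like cells also differed, at 99.1 and 80.6 CPM in WT and 44.3 and 15.01 CPM in IL1α-/- (10 of 11 markers with UMIs, Krt19 at 0). Tumour epithelial-like cells themselves held Ada at 3.73 and 1.41 CPM in the WT libraries, below the T/NK-like level.

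The T/NK-like class did not have the same make-up in the 2 groups of hosts. CD8 T-like cells were 1.24% and 4.53% of it in WT and 35.5% and 29.2% in IL1α-/-. CD4 T-like cells made up 2.74% and 2.25% against 9.37% and 17.2%. Gamma-delta T-like cells, which carry the other kind of T cell receptor, made up 22.9% and 26.5% against 11.8% and 13.4%, and regulatory T-like cells (Foxp3+, the cells that restrain other T cells) 14.03% and 11.8% against 1.86% and 4.61%. NK-like cells made up 38.1% and 37.7% against 32.2% and 19.7%. These shares were read from clusters of the same cells and were not tested. They depend on the resolution of the clustering. At a Leiden resolution of 0.5, 23 and 27 WT cells and 17 and 42 IL1α-/- cells were named gamma-delta T-like. A cluster of 898 cells led by Tcrg-C2 stayed unnamed there. CD8 T-like cells then numbered 4 and 19 against 879 and 630. Subset levels below are at a resolution of 1 unless another is given.

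Within subsets, Ada was highest in WT in proliferating, NK-like and gamma-delta T-like cells, and in all of these it was lower in IL1α-/-. NK-like cells held 31.9 and 37.5 CPM in WT (95 and 152 UMIs) and 6.18 and 5.89 CPM in IL1α-/- (6 and 7 UMIs). Gamma-delta T-like cells held 25.7 and 30.01 CPM against 5.49 and 3.06 CPM, the latter from 2 and 3 UMIs. Proliferating cells held 49.3 and 28.1 CPM against 0 and 1.66 CPM, with 0 and 4 UMIs in IL1α-/-. WT and IL1α-/- libraries did not overlap in any of the 3, which were picked for their high WT level. Over the whole T/NK-like class, 56.9% of genes did not overlap either. This share was not computed for single subsets or clusters. At a Leiden resolution of 0.5 the few cells named gamma-delta T-like held 0 and 4 Ada UMIs in WT and 0 and 0 in IL1α-/-, which overlapped. The proliferating cells of WT lay mainly in a cluster rich in Ncr1 (72 and 106 cells, against 3 and 18), and those of IL1α-/- in another (109 and 222 cells, against 26 and 55 in WT). Within the latter Ada was lower in WT than over all proliferating cells, at 15.96 and 11.6 CPM from 4 and 9 UMIs, against 0 and 1.75 CPM, and the groups did not overlap.

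In the other subsets Ada was low in WT as well. Regulatory T-like cells held 9.93 and 8.33 CPM in WT and no UMI in IL1α-/-, where 3 counts over the 316185 UMIs of both libraries would be 9.49 CPM, so a difference was not detectable at this depth. CD8 T-like cells held 0 and 8.17 CPM in WT and 0 and 3.32 CPM in IL1α-/-, and CD4 T-like cells 7.23 and 0 CPM against 0 and 2.20 CPM. Both overlapped. Naive or memory T-like cells, which express Ccr7 and Lef1, had no Ada UMI in any library. In IL1α-/-, 3 counts over their 96881 UMIs would be 30.97 CPM, so a low level could not be seen. At a Leiden resolution of 0.5 cells of this name held 15.8 and 35.1 CPM in WT (13 and 24 UMIs). They held 2.54 and 3.35 CPM in IL1α-/- (1 and 3 UMIs), without overlap. The leading genes of that cluster included Tcrg-C4 and Trdc, which are gamma-delta markers.

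With each subset weighted by its WT share in every library, an alternative chosen after seeing the data, Ada stood at 25.3 and 25.8 CPM in WT and at 3.47 and 3.47 CPM in IL1α-/-, a ratio of 7.37 in place of 9.96. Both IL1α-/- libraries were thus lower at a fixed mix of subsets too. Subsets were themselves made of different clusters in the 2 groups. Of the NK-like cells, a cluster led by Gzmc, Klrb1f and Ncr1 held 460 and 500 WT cells but 24 and 1 IL1α-/- cells, and a cluster led by Vegfa and Klrb1b held 50 and 21 against 601 and 127. In a second NK-like cluster led by Vegfa, with cells of all libraries (312, 268, 58 and 208 cells), Ada stood at 23.9 and 35.3 CPM in WT against 10.3 and 8.03 CPM in IL1α-/-, from 1 and 5 UMIs in the latter. In the gamma-delta T-like cluster present in all libraries (163, 118, 256 and 267 cells) it stood at 25.4 and 38.3 CPM against 6.22 and 3.48 CPM. The groups did not overlap in either cluster.

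**Figure D2:**
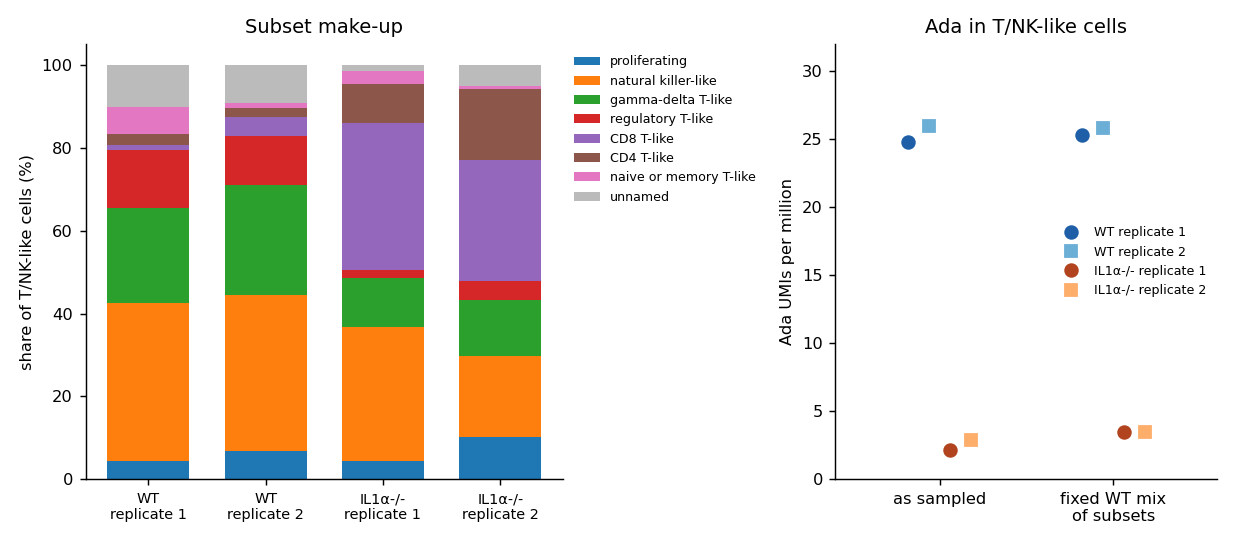
Left, share of T/NK-like cells in each subset (stacked to 100%) for each library; CD8 T-like cells are 1.24% and 4.53% in WT and 35.5% and 29.2% in IL1α-/-. Right, Ada CPM in T/NK-like cells as sampled and with every library given the WT mix of subsets, with 1 point per library; the ratio of group means is 9.96 and 7.37.

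Upstream of adenosine, Entpd1 was higher in T/NK-like cells of IL1α-/- hosts. It was measured at 28.8 and 38.0 CPM in WT and at 104.5 and 69.2 CPM in IL1α-/-, with no overlap, a ratio of means of 2.60 and a log2 fold change of 1.38 (standard error 0.23). Its place past the threshold was lost when either WT library was left out. In IL1α-/- CD8 T-like cells carried 259 of the 385 and 308 of the 590 Entpd1 UMIs of the class. They held 6.78 and 54.5 CPM in WT (1 and 40 UMIs) and 174 and 128 CPM in IL1α-/-. In IL1α-/- replicate 1 the CD8 T-like cells lay mainly in a cluster of 734 cells led by the receptor segments Trav1 and Trbv2, which held 45 cells of IL1α-/- replicate 2 and 1 and 5 of the WT libraries. In IL1α-/- replicate 2 they lay mainly in another cluster of 568 cells, which held 2 and 11 WT cells. Most WT cells of the subset (22 of 28 and 80 of 107) lay in yet another cluster, led by Ccl1, Spp1 and Tbc1d4, with 79 and 31 IL1α-/- cells. In WT replicate 1 and IL1α-/- replicate 2 this cluster held more Cd4 (361 and 275 CPM) than Cd8a (177 and 219 CPM). In WT replicate 2 and IL1α-/- replicate 1 it held more Cd8a (458 and 554 CPM) than Cd4 (148 and 63.9 CPM). Within it Entpd1 overlapped between the groups, at 7.68 and 52.7 CPM in WT and 42.6 and 16.2 CPM in IL1α-/-. The CD8 T-like values thus compare different clusters.

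Entpd1 did not move one way in every subset. NK-like cells held 23.5 and 29.1 CPM in WT and 41.2 and 54.7 CPM in IL1α-/-, and regulatory T-like cells 77.2 and 70.0 CPM against 192 and 78.8 CPM. Gamma-delta T-like cells went the other way, with 19.2 and 22.6 CPM in WT and 2.75 and 11.2 CPM in IL1α-/-, the latter from 1 and 11 UMIs. Most WT cells of that subset lay in a cluster with few IL1α-/- cells (333 and 480 against 18 and 9). In the gamma-delta T-like cluster present in all libraries Entpd1 was at 12.7 and 9.58 CPM in WT and 3.11 and 9.27 CPM in IL1α-/-, nearly equal in the libraries numbered 2. At a Leiden resolution of 0.5 only 17 to 42 cells of a library were named gamma-delta T-like, with 0 to 2 Entpd1 UMIs, and the groups overlapped. At the fixed WT mix of subsets the ratio of IL1α-/- to WT was 1.89 in place of 2.60. Free RNA held Entpd1 at 18.1 and 34.1 CPM in WT and at 57.8 and 39.2 CPM in IL1α-/-, and its part in these values was not tested.

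**Figure D3:**
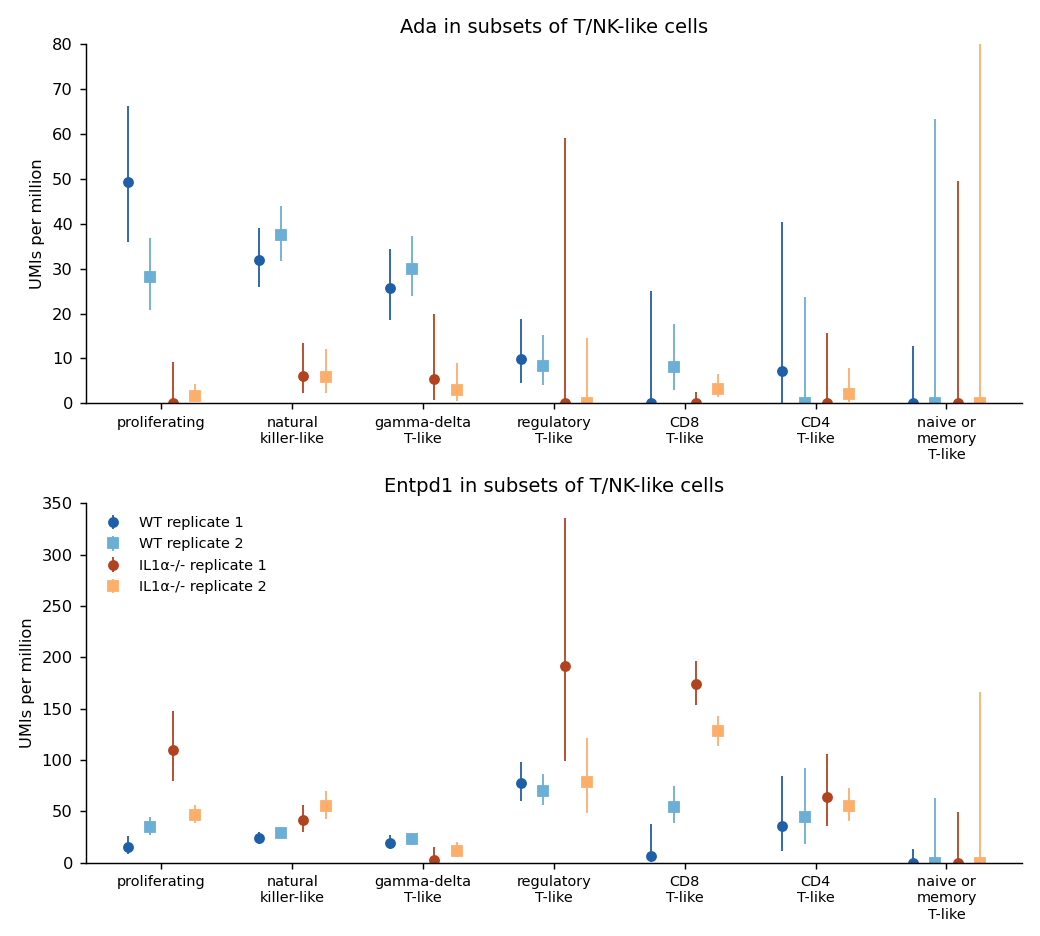
CPM of Ada (top) and Entpd1 (bottom) in 7 subsets of T/NK-like cells, with 1 point per library and exact Poisson 95% intervals as bars, which cover counting error only (bars that reach beyond the axis are cut off). For NK-like cells Ada is 31.9 and 37.5 in WT and 6.18 and 5.89 in IL1α-/-, and for CD8 T-like cells Entpd1 is 6.78 and 54.5 in WT and 174 and 128 in IL1α-/-.

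Nt5e, which makes adenosine from AMP, was slightly lower in T/NK-like cells of IL1α-/- hosts, with 73.5 and 84.9 CPM in WT and 60.8 and 55.8 CPM in IL1α-/- and a log2 fold change of -0.42 (standard error 0.16). The groups did not overlap, but 56.9% of all genes in this class did not overlap either. Nt5e was highest in regulatory T-like cells, at 211, 207, 336 and 158 CPM in the order WT replicate 1, WT replicate 2, IL1α-/- replicate 1 and IL1α-/- replicate 2. NK-like cells held 33.6 and 55.7 CPM in WT and 21.6 and 26.1 CPM in IL1α-/-, and CD8 T-like cells 108 and 159 CPM against 69.8 and 72.2 CPM. Both of these subsets were lower in the IL1α-/- libraries, while the regulatory T-like libraries overlapped. The CD8 T-like values again compare different clusters. Within the cluster led by Ccl1, Spp1 and Tbc1d4 Nt5e was at 123 and 166 CPM in WT and 42.6 and 64.7 CPM in IL1α-/-. At a Leiden resolution of 0.5 the CD8 T-like groups overlapped, at 0 and 80.3 CPM (4 and 19 WT cells) against 74.3 and 75.8 CPM.

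A cell with both CD39 and CD73 can take ATP to adenosine by itself. In regulatory T-like cells a UMI of Entpd1 and one of Nt5e were found together in 9.43% and 11.8% of cells in WT and in 10.9% and 2.75% in IL1α-/-, from 30, 33, 5 and 3 cells. In CD8 T-like cells the share was 0% and 13.1% in WT (0 of 28 and 14 of 107 cells) and 1.94% and 6.23% in IL1α-/-, so the groups overlapped. These shares depend on depth and were not thinned.

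Adora2a, the adenosine receptor best known from lymphocytes, was measured in T/NK-like cells at 38.6 and 31.5 CPM in WT and at 48.3 and 73.9 CPM in IL1α-/-. Both IL1α-/- libraries were higher, with a log2 fold change of 0.86 (standard error 0.22). NK-like cells held 49.4 and 45.3 CPM against 75.2 and 121 CPM, and gamma-delta T-like cells 31.5 and 27.0 CPM against 65.9 and 89.9 CPM. Regulatory T-like cells overlapped, at 50.8 and 29.2 CPM against 31.99 and 43.4 CPM. The free RNA moved with it: Adora2a stood there at 30.04 and 18.8 CPM in WT and at 57.8 and 107 CPM in IL1α-/-, in the latter above the level of the T/NK-like class. The part of free RNA in the difference was not tested. At the fixed WT mix of subsets the ratio of IL1α-/- to WT was 2.01, beside 1.74 as sampled.

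Adora2b was almost absent from T/NK-like cells, with 4, 7, 1 and 4 UMIs in the 4 libraries, and it did not pass the filter there. Dpp4 was measured at 11.8 and 12.6 CPM in WT and at 19.0 and 19.2 CPM in IL1α-/-, with a log2 fold change of 0.68 (standard error 0.18). It was nearly missing from NK-like cells (1 or 2 UMIs in each library) and present in gamma-delta T-like cells at 29.2 and 24.1 CPM against 35.7 and 30.6 CPM. Free RNA held Dpp4 at 27.5, 9.38, 26.9 and 14.7 CPM in the order WT replicate 1, WT replicate 2, IL1α-/- replicate 1 and IL1α-/- replicate 2, so it was above the T/NK-like class in both libraries numbered 1.

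Pnp, the step after Ada, showed no separation of the groups in T/NK-like cells, with 38.5 and 42.7 CPM in WT and 33.4 and 49.1 CPM in IL1α-/- and a log2 fold change of 0.08 (standard error 0.21). In the annotation Pnp (chromosome 14, 50931082 to 50965237) overlaps its near copy Pnp2 (50955992 to 50964749). A 1083-base stretch of the longer Pnp transcript matched the Pnp2 transcript at 97.3% identity, with a longest identical run of 292 bases, so reads from it could be split or lost. The stretch ended at base 1138 of 2942, away from the 3′ end where this chemistry reads. Pnp2 itself had 2 UMIs in all called cells.

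Among the classes with at least 20 cells in every library, the members differed in the class where they were highest. The levels below are CPM in the 4 libraries of a class from lowest to highest, without regard to host, and as a description. Nt5e and Adora2a were highest in T/NK-like cells, at 55.8 to 84.9 CPM and 31.5 to 73.9 CPM, and in both cases every T/NK-like library was above every library of the next class (fibroblast-like for Nt5e, 3.18 to 12.5 CPM, and conventional dendritic-like for Adora2a, 10.96 to 20.3 CPM). Adora2b was highest in fibroblast-like cells, at 17.6 to 49.6 CPM, above conventional dendritic-like cells at 5.86 to 11.3 CPM, and it had no UMI in plasmacytoid dendritic-like cells. Entpd1 was highest in mononuclear phagocyte-like cells at 56.7 to 124 CPM, but each class overlapped its neighbour in the order down to fibroblast-like cells at 5.38 to 43.1 CPM. The same held for Ada, whose T/NK-like range of 2.17 to 26.0 CPM overlapped every other class of this order. Classes with fewer cells were left out. Of these, neutrophil-like cells held more Entpd1, at 202 to 1100 CPM from 4 to 24 UMIs. So did endothelial-like cells, at 181 to 255 CPM from 1 to 7 UMIs in the libraries that held such cells. Tumour epithelial-like cells held Nt5e at 9.33 to 28.8 CPM, from 4 to 123 UMIs. Mast/basophil-like cells, 3 to 12 in a library, held Adora2b at 256 CPM in WT replicate 2 (8 UMIs). They held it at 66.7 CPM in IL1α-/- replicate 2 (1 UMI) and had 0 UMIs in both libraries numbered 1. Their Nt5e was at 224 CPM in WT replicate 2 (7 UMIs) and at 0 elsewhere.

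Among the same classes, Dpp4 and Pnp had their highest means in stromal and myeloid cells. Dpp4 was measured at 47.1 to 321 CPM in fibroblast-like and 98.6 to 111 CPM in conventional dendritic-like cells, which overlapped, then at 36.0 to 56.3 CPM in plasmacytoid dendritic-like, 11.8 to 19.2 CPM in T/NK-like and 2.29 to 9.71 CPM in mononuclear phagocyte-like cells, where each class lay below the one before. Pnp was at 137 to 257 CPM in fibroblast-like, 90.3 to 192 CPM in conventional dendritic-like and 99.6 to 143 CPM in mononuclear phagocyte-like cells, which overlapped in turn, and lower at 33.4 to 49.1 CPM in T/NK-like and 12.1 to 41.5 CPM in plasmacytoid dendritic-like cells.

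Outside the T/NK-like class the effect of host genotype on the members was tested. The Ada difference behind the set lay in T and NK cells. Earlier results of these data were known when the set was made, so these tests may not be wholly independent of the choice. In mononuclear phagocyte-like, fibroblast-like, plasmacytoid dendritic-like and conventional dendritic-like cells edgeR called none of the 6, 5, 3 and 3 members that passed the filter on low counts. Of all genes, 0.558%, 0%, 1.96% and 0.107% were called in these classes. At an unadjusted p under 0.05 the counts of members were 0, 0, 1 and 1, and the fibroblast-like class as a whole had 481 of 9999 genes at that level and 7 called by DESeq2. DESeq2 called no member in these 4 classes either. The misses do not show that the levels were alike. Groups that do not overlap were common among all genes, at 47.7% in mononuclear phagocyte-like, 36.5% in fibroblast-like and 40.8% in conventional dendritic-like cells.

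Pnp in plasmacytoid dendritic-like cells came nearest. It was at 41.5 and 28.1 CPM in WT and at 12.1 and 14.4 CPM in IL1α-/-, the latter from 3 and 6 UMIs. Both IL1α-/- libraries were lower, in a class where the groups did not overlap for 45.5% of genes, with a log2 fold change of -1.37 (standard error 0.49, edgeR adjusted p = 0.187, and 0.117 to 0.601 over the alternatives). In fibroblast-like cells Pnp went the other way, from 155 and 137 CPM to 257 and 165 CPM (log2 fold change 0.52, standard error 0.30, edgeR adjusted p = 0.865).

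The ectoenzyme Entpd1 overlapped between hosts in mononuclear phagocyte-like cells, at 81.7 and 87.4 CPM in WT and 124 and 56.7 CPM in IL1α-/- (log2 fold change -0.02, standard error 0.31, edgeR adjusted p = 0.991). In conventional dendritic-like cells it was at 31.6 and 44.6 CPM against 21.9 and 14.6 CPM, from 14, 29, 2 and 5 UMIs (log2 fold change -1.17, standard error 0.52, edgeR adjusted p = 0.505). Adora2a in mononuclear phagocyte-like cells was at 3.58 and 4.83 CPM against 14.4 and 7.45 CPM, from 5 and 13 UMIs in the latter (log2 fold change 1.10, standard error 0.52, edgeR adjusted p = 0.380). Adora2b, highest in fibroblast-like cells among the 5 larger classes, overlapped between hosts there. It was at 49.6 and 17.6 CPM against 36.3 and 23.6 CPM (log2 fold change -0.19, standard error 0.53, edgeR adjusted p = 0.973).

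**Figure D4:**
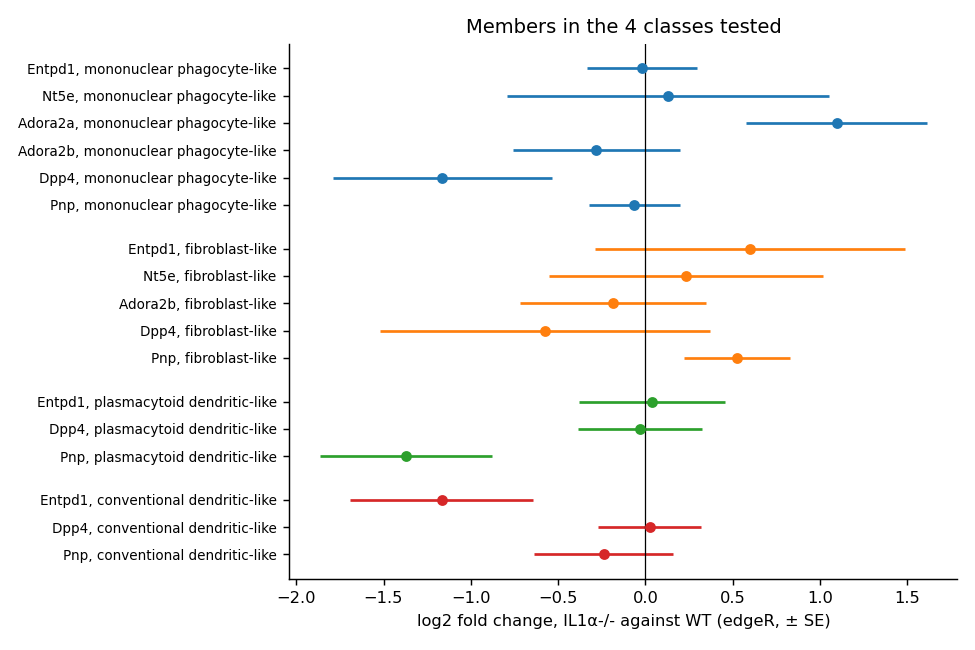
The log2 fold change of each member that passed the filter on low counts, IL1α-/- against WT, with edgeR's standard error as a bar, in the 4 classes tested. The values run from -1.37 (Pnp, plasmacytoid dendritic-like) to 1.10 (Adora2a, mononuclear phagocyte-like), and no member was past an adjusted p of 0.05.

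Ada passed the filter in none of these 4 classes. Its UMIs were 10 and 16 in WT against 0 and 1 in IL1α-/- mononuclear phagocyte-like cells, and 10 and 41 against 1 and 4 in fibroblast-like cells. With no filter its log2 fold change was -3.09 (standard error 1.22, edgeR adjusted p = 0.174) and -2.46 (standard error 0.71, edgeR adjusted p = 0.0441). Ada was so called in fibroblast-like cells, where 1.3% of all genes were called with no filter, and not in mononuclear phagocyte-like cells, where 3.78% were. Both IL1α-/- libraries were thus lower than both WT libraries here too, at 0 and 0.573 CPM against 5.11 and 4.29 CPM and at 1.13 and 2.01 CPM against 4.55 and 14.7 CPM. The levels of mononuclear phagocyte-like cells were below those of the free RNA in every library. Those of fibroblast-like cells were below it in all but WT replicate 2 (14.7 beside 10.7 CPM), so their share of free RNA cannot be told apart. Dendritic-like cells had 0 to 7 Ada UMIs in a library, and the groups overlapped.

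Dpp4 in fibroblast-like cells differed between libraries more than between hosts. It was at 321 and 59.1 CPM in WT and at 214 and 47.1 CPM in IL1α-/-, high in both libraries numbered 1 and low in both numbered 2, and the log2 fold change was -0.57 (standard error 0.95, edgeR adjusted p = 0.934). A cluster led by Smpd3, Ptx3 and Pi16 made up 82.7% and 95.1% of the fibroblast-like cells of the libraries numbered 1 and 25% and 20.3% of those numbered 2. A second cluster, led by Cilp and Col12a1, held the rest. Within the first cluster Dpp4 was at 377 and 208 CPM in WT and 226 and 237 CPM in IL1α-/-, and within the second it was at 22.7, 18.3, 0 and 25.7 CPM. Dpp4 was therefore high in one kind of fibroblast-like cell in every library.

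**Figure D5:**
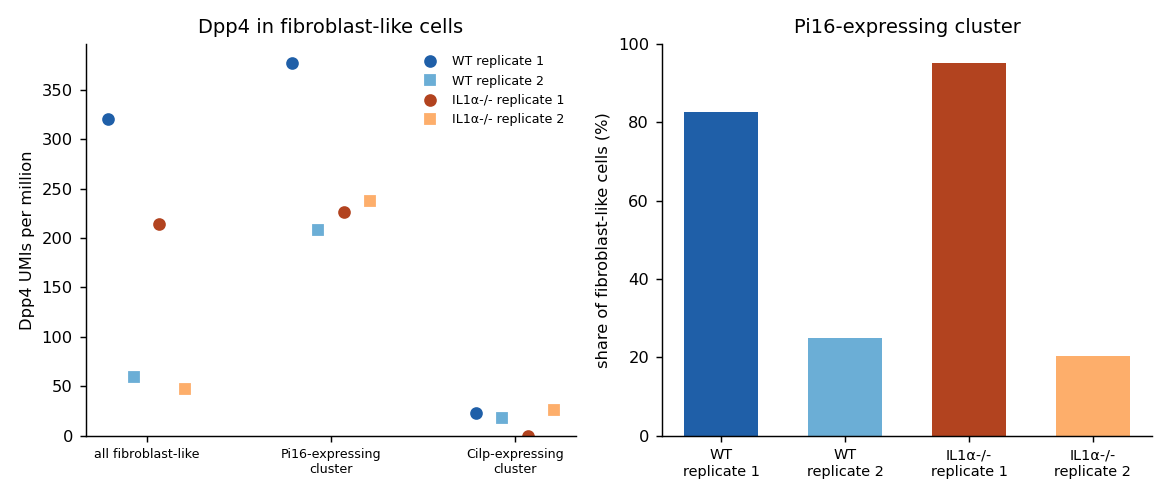
Left, Dpp4 CPM in all fibroblast-like cells and in their 2 clusters, with 1 point per library; within the Pi16-expressing cluster the 4 libraries lie between 208 and 377. Right, share of fibroblast-like cells in that cluster (bars, 1 per library), 82.7% and 95.1% in the libraries numbered 1 and 25% and 20.3% in those numbered 2.

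Of the wider pathway, 42 further genes were looked up, from the release of ATP to the breakdown of purines. In T/NK-like cells 23 of them passed the filter, and 3 were past an adjusted p of 0.05 in edgeR, all higher in IL1α-/-, beside 2.85% of all genes called higher. The median log2 fold change of the 23 was 0.14, and that of all genes -0.02. Acpp, a prostatic acid phosphatase that can also cut extracellular AMP to adenosine, was at 13.9 and 14.5 CPM in WT and at 60.0 and 26.8 CPM in IL1α-/- (log2 fold change 1.59, standard error 0.34). Slc28a2, a sodium-driven transporter that takes up purine nucleosides, went from 15.5 and 11.5 CPM to 42.1 and 38.0 CPM (1.602, standard error 0.19). Ahcy, which forms adenosine inside cells from S-adenosylhomocysteine and has near-identical copies in the genome that leave its count uncertain, went from 2.93 and 2.21 CPM to 5.97 and 10.3 CPM (1.77, standard error 0.36). None of the 3 overlapped between the groups, but the rule for naming them required this. Of all genes in this class, 56.9% did not overlap either.

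In the other 4 classes none of the further genes that passed the filter was called by edgeR: 0 of 23 in mononuclear phagocyte-like, 0 of 18 in fibroblast-like, 0 of 13 in plasmacytoid dendritic-like and 0 of 10 in conventional dendritic-like cells, with 6, 2, 3 and 1 at an unadjusted p under 0.05. Ada, Ahcy and Slc28a2 lie on chromosome 2 with Il1a, at 34.4, 25.8 and 6.9 Mb from it, as do the uncalled Dpp4 (67.0 Mb) and Adal (8.2 Mb). In T/NK-like cells 45 of 855 tested genes of chromosome 2 were called (5.26%), beside 474 of 10217 on the other chromosomes (4.64%). Whether sequence near the knocked-out gene differed between the groups was not tested.

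The genes whose level followed a member most closely were sought over 20 points (5 classes in 4 libraries) among 12545 genes, by Pearson correlation of log2(CPM + 1). The points share libraries and depth, and classes set most of the spread, so these are descriptions. Adora2a was most like the T cell receptor genes Trac (r = 0.920), Cd3d and Cd3g, then Cd2 and Icos. Nt5e was most like Cd96 (r = 0.902), Gzma, Tox, Cd160 and Txk, and Adora2b like Hebp2 (r = 0.969), Map3k20, Pkdcc and Nav1. Pnp was most like Tubb6 (r = 0.933), Ifitm2, Nav1, Parp12 and Dhrs9. Weaker likeness was found for Dpp4 (Tmem29, r = 0.855) and Entpd1 (Abi1, r = 0.848). Ada had the weakest, with Eef1g at r = 0.757, then Srp14, Mettl3, Rnf219 and Rpl36a-ps1.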

How the data were processed

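The deposited values are raw UMI counts per gene and barcode for each of the 4 libraries. They were made with Cell Ranger 3.1.0 per the submitters' processing notes, on a combined reference of 33538 human and 31053 mouse features per the file headers, and the authors deposited them without normalization or removal of empty droplets. Mouse features were used. The members and lists were chosen with earlier results of these data known.

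Barcodes with at least 500 UMIs, 250 genes and at most 20% mitochondrial UMIs were kept, and the highest Scrublet scores (0.8% per 1000 cells) were removed as doublets. Barcodes were not tested against the free RNA profile. Cells were clustered with scanpy 1.11.5 (2000 variable genes, 30 components, 15 neighbours, Leiden resolution 1), and T/NK-like cells were clustered again. A cluster was named when at least 3 fixed markers stood out and its leading genes did not go against the name. Its marker score had to be at least 2 times the next (1.5 times for subsets). Clusters under 33.33% of the median UMIs of their libraries stayed unnamed if no own marker was among the leading genes. Of the clusters of all cells, 3 stayed unnamed, with 344, 116 and 36 cells. The largest scored best as tumour epithelial-like and held 205 and 130 WT cells and 6 and 3 IL1α-/- cells. Within T/NK-like cells, markers of T and NK subsets counted as their own.

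UMIs were summed per class and library and tested with edgeR 4.0.16 (filterByExpr, TMM, quasi-likelihood test, Benjamini-Hochberg adjustment over all genes of the class, called under 0.05), and DESeq2 1.42.0 was an alternative. The code was tested on simulated data, where unchanged genes made up more of the calls than the threshold of 0.05 allows in each class but the conventional dendritic-like, most of all in T/NK-like cells, so counts of calls may be too high. With 2 libraries a group, an exact permutation test could not go below 0.33, so none is given. P-values set the difference between the groups against the spread between these libraries, estimated with information shared across genes. As the labels do not give the number of animals in a library, the spread between animals is not known. Genes were named by a rule: the 7 members, further pathway genes called in a class other than T/NK-like (none), those called in T/NK-like cells with a log2 change of at least 1 and no overlap, Pnp2, and the 5 genes most like each member, of which 1 is not reported here. Intervals are at 95%. Gene positions are from GENCODE vM21.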

Additional observations from a re-analysis of the deposited data

Results flagged for a closer look

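In 4 cases both IL1α-/- libraries were above both WT libraries in one kind of cell and below them in another. The value given is the difference of the 2 log2 ratios of mean CPM (with 1 added to each mean), and none of these differences was tested. Groups that do not overlap were common among all genes, at 56.9% in T/NK-like and 40.8% in conventional dendritic-like cells. The share was 36.5% in fibroblast-like and 45.5% in plasmacytoid dendritic-like cells, and it was not computed for single subsets. How often other genes went opposite ways was not computed. Entpd1 was higher in T/NK-like cells (log2 ratio 1.35) and lower in conventional dendritic-like cells (-1.02), a difference of 2.37. Within T/NK-like cells, Entpd1 was higher in CD8 T-like (2.26) and lower in gamma-delta T-like cells (-1.46), a difference of 3.72. These subsets were made of different clusters in the 2 groups. In the cluster with most WT CD8 T-like cells Entpd1 overlapped (7.68 and 52.7 CPM in WT, 42.6 and 16.2 CPM in IL1α-/-). In the gamma-delta T-like cluster present in all libraries it was 12.7 and 9.58 against 3.11 and 9.27 CPM, and at Leiden resolution 0.5 the gamma-delta T-like groups overlapped. Pnp was higher in fibroblast-like (0.53) and lower in plasmacytoid dendritic-like cells (-1.33), a difference of 1.86. Dpp4 was higher in proliferating (1.91) and lower in CD4 T-like cells (-1.19), a difference of 3.099, which rests on 5 and 6 UMIs in the WT CD4 T-like cells. Proliferating cells too lay mainly in different clusters in the 2 groups. In the cluster with most of the IL1α-/- ones Dpp4 was 0 and 6.45 CPM in WT, from 0 and 5 UMIs. It was 25.2 and 16.2 CPM in IL1α-/- there. With groups of 2 libraries, single libraries could not be checked as outliers.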

How the results depend on the processing

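Of 459 values recomputed, 361 stayed as they were by direction, call or replicate spread. Ada in T/NK-like cells kept its direction in all 12 refits, with log2 fold changes of -3.53 to -3.04 when 1 library was left out. The shares of T/NK-like cells with an Ada UMI became 2.10%, 2.40%, 0.177% and 0.224% when cells were thinned to 1000 UMIs and 0.971%, 1.57%, 0.121% and 0.0846% when thinned to 500. Ada in IL1α-/- NK-like cells was 6.44 and 6.56 CPM at Leiden resolutions 0.5 and 1.5, and the WT to IL1α-/- ratio was 7.37 at the fixed mix of subsets, which, like leaving out TMM, was chosen after seeing the data.

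The number of genes called changed far more. In T/NK-like cells (519) it was 1743 with no filter, 2189 with the replicate number as a block and 48 to 1254 when 1 library was left out, with 48 and 59 without WT replicate 1 and 2, 1115 and 1254 without IL1α-/- replicate 1 and 2. In mononuclear phagocyte-like cells (50) it was 553 with no filter, 186 with the block, 33 without TMM, 98 by DESeq2, 5 with at least 1000 UMIs per cell, 8 with at most 10% mitochondrial UMIs, 14 without doublet removal, 32 with cells assigned by their own marker UMIs, and 0 to 215 with 1 library left out. In fibroblast-like cells (0) it was 212 with no filter, 7 by DESeq2 and 0 to 2 with 1 library left out. In plasmacytoid dendritic-like cells (115) it was 230 with no filter, 333 with the block, 54 by DESeq2 and 0 to 173. In conventional dendritic-like cells (5) it was 81 with no filter, 9 with the block, 2 without doublet removal and 6 to 100, and classes from single-cell markers held too few cells to be fitted. A lone library in a left-out fit was assumed to vary like the other group, and the causes were not tested.

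In T/NK-like cells the members called (2) numbered 4 with no filter, 5 with the block and 1 to 4 with 1 library left out, and the further pathway genes called (3) numbered 9, 8 and 0 to 5. Elsewhere, members were called only with no filter (1 fibroblast-like, Ada). Further genes were called with no filter in mononuclear phagocyte-like (3: P2ry13, Bst1, Enpp1) and conventional dendritic-like cells (1: Xdh), and with the block in plasmacytoid dendritic-like cells (1: Slc29a3), named after their values were seen. The labels do not say that a replicate number marks a pair, so the block is no paired test.

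Uncalled log2 fold changes near 0 changed sign. In mononuclear phagocyte-like cells Entpd1 was 0.0314 by DESeq2, 0.0188 with at least 1000 UMIs, 0.0169 with at most 10% mitochondrial UMIs and 0.25 by single-cell markers, Nt5e -0.14 with the block, and Pnp 0.0427 without doublet removal and 0.0864 by single-cell markers. In plasmacytoid dendritic-like cells Entpd1 was -0.0004 with no filter, and Dpp4 was 0.0236 with the block, 0.0142 by DESeq2, 0.0157 with at most 10% mitochondrial UMIs and 0.12 without doublet removal. In conventional dendritic-like cells Dpp4 was -0.0291 with no filter and -0.0451 without TMM. With 1 library left out, ranges in mononuclear phagocyte-like cells were -0.47 to 0.48 (Entpd1), -0.79 to 0.35 (Nt5e) and -0.32 to 0.25 (Pnp). In fibroblast-like cells they were -0.40 to 2.25 (Entpd1), -0.72 to 1.19 (Nt5e), -0.74 to 0.73 (Adora2b) and -1.95 to 1.10 (Dpp4). In dendritic-like cells they were -0.44 to 0.54 (Entpd1, plasmacytoid), -0.32 to 0.29 (Dpp4, plasmacytoid), -0.11 to 0.12 (Dpp4, conventional) and -0.64 to 0.37 (Pnp, conventional).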
